A study of Mus musculus with 6 samples.

Results

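A set of 4 entries of a small RNA count table from mouse kidney is described here: both arms of the hairpin miR-223 (miR-223-3p and miR-223-5p) and both arms of the hairpin miR-511 (miR-511-3p and miR-511-5p). They were chosen by name, and all 4 were found among the 1542 mature entries of the table. The tested animals were female MRL/lpr mice (strain MRL/MpJ-Fas<lpr>/J), which carry the lpr mutation of the death receptor gene Fas and develop a spontaneous lupus-like disease with nephritis. The controls were female C57BL/6 mice. Both groups were 17 weeks old, no treatment is named, and there were 3 kidney libraries for each strain. Whether each library came from a separate animal is not stated in the labels, so the p-values below measure the spread between these libraries, which may be technical. Strain background, the lpr mutation and disease cannot be told apart in this design.

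MicroRNAs (miRNAs) are short RNAs that guide repression of messenger RNAs, mainly through their seed, bases 2 to 8 from the 5′ end. miR-223 is a myeloid miRNA: it accumulates during granulocyte differentiation under the transcription factors PU.1 and C/EBP, restrains neutrophil activation, and is also carried by monocytes and platelets. miR-511 lies inside the gene of the macrophage mannose receptor Mrc1 (CD206), with which it is co-transcribed, and marks tissue macrophages and dendritic cells. In kidney tissue, where most RNA comes from tubules, both are taken here mainly as miRNAs of resident and infiltrating myeloid cells. Which cells made them in these libraries was not tested. In whole tissue, fewer cells of a type and less RNA per cell cannot be told apart.

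The mature sequences of the 3 members with a RefSeq entry (build GRCm38.p6) are printed with the seed in capitals, because the seed fixes which messages each arm can pair with.
miR-223-3p: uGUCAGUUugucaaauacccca
miR-223-5p: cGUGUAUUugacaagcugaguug
miR-511-3p: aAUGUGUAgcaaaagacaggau
The 3 seeds differ, so the arms form 3 seed groups of 1 member each. Of the 1190 table entries with a miRBase name, 996 had a mature sequence in the RefSeq table, and none of these shared a seed with a member. The most similar other mature sequences lay 9 edits from miR-223-3p (miR-204-5p), 9 from miR-223-5p and 8 from miR-511-3p, counting substitutions, insertions and deletions. The messenger RNA sites complementary to the seeds read AACUGAC for miR-223-3p, AAUACAC for miR-223-5p and UACACAU for miR-511-3p.

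The hairpins are printed to show the arms from which the counts came. Capitals mark the mature arms listed by RefSeq, which are miR-223-5p, miR-223-3p and miR-511-3p; the miR-511-5p arm is not marked.
Mir223: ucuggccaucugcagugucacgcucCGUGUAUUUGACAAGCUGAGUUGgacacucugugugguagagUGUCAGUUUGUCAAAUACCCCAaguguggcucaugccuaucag
Mir511: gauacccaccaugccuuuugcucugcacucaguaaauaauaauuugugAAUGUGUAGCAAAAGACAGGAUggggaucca
Mir223 lies on the plus strand at chrX:96242817-96242926 (GRCm38.p6), in the last exon of the long noncoding transcript F630028O10Rik (exon 3 of 3 or exon 2 of 2 in its GENCODE M21 transcripts). Mir511 lies on the plus strand at chr2:14261003-14261081, in intron 5 of Mrc1, whose transcript has 30 exons.

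The start-site regions of both host genes (250 bases before to 50 after the RefSeq start, 300 bases each) are shown because both hairpins are known to be made with their hosts. Capitals mark GAGGAA or its reverse complement TTCCTC, the core of a PU.1 site, searched on both strands.
F630028O10Rik, plus strand, chrX:96239676-96239975: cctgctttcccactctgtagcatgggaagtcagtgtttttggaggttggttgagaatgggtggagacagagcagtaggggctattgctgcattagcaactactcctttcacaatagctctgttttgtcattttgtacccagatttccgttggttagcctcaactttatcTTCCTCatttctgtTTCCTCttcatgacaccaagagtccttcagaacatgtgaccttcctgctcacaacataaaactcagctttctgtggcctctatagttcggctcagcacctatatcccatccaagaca
Mrc1, plus strand, chr2:14229164-14229463: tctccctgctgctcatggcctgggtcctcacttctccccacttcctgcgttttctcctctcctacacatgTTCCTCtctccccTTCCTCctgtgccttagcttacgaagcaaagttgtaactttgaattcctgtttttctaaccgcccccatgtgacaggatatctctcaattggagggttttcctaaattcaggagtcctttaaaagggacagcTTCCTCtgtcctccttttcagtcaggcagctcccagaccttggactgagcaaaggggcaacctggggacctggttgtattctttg
The F630028O10Rik window held 2 matches and the Mrc1 window 3. Of 32851 mouse start-site windows of the same length, 28.3% held at least 1 match, 4.82% at least 2 and 0.685% at least 3. A C/EBP-type pattern, TTNNGNAA on either strand, matched once in the F630028O10Rik window and at 2 overlapping places in the Mrc1 window. Of all windows, 40.7% held at least 1 such match and 13.6% at least 2. These are letter matches and were not tested as binding sites.

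Libraries held 5259528 to 6460200 counts in MRL/lpr and 5430246 to 6773829 in C57BL/6. Kidney epithelium miRNAs were abundant in every library: a list of 12, with the tubular miRNA miR-192-5p among them, summed to 138924 to 157322 CPM in MRL/lpr and 114312 to 157804 in C57BL/6. CPM are counts per 1000000 counts of a library total scaled by TMM, which centres the bulk of miRNAs between libraries. One control library, C57BL/6 replicate 2, differed strongly from the other C57BL/6 libraries in the members and in further leukocyte miRNAs. The strain tests and the ratios to miR-142a-3p are therefore given with and without it. The nearest profiles and the ratios of members to other leukocyte miRNAs were computed over all 6 libraries only.

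miR-223-3p (mmu-miR-223-3p), the main granulocyte arm, was at an intermediate and even level in MRL/lpr kidneys and at very uneven levels in C57BL/6 kidneys. It had 2846, 1899 and 2000 counts in MRL/lpr replicates 1, 2 and 3, and 1082, 6344 and 1509 in C57BL/6 replicates 1, 2 and 3. On the scaled level these were 402, 369 and 331 CPM in MRL/lpr and 221, 1019 and 235 CPM in C57BL/6. All 3 MRL/lpr libraries lay above C57BL/6 replicates 1 and 3 and below replicate 2, so the groups overlapped. Means were 367 ± 35.4 CPM in MRL/lpr and 492 ± 457 CPM in C57BL/6 (SD, n = 3 each). The log2 fold change of MRL/lpr over C57BL/6 was -0.42 ± 0.64 (SE; quasi-likelihood test of edgeR with p-values adjusted by Benjamini-Hochberg over 451 miRNAs, adjusted p = 0.738), smaller than its own error. The MRL/lpr mean was 1.66 times the level of C57BL/6 replicate 1 and 1.56 times that of replicate 3, but 0.360 times that of replicate 2. By abundance miR-223-3p ranked 92, 100 and 102 of 1542 entries in MRL/lpr and 118, 68 and 111 in C57BL/6.

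miR-511-3p (mmu-miR-511-3p), the arm that marks macrophages, was also highest in C57BL/6 replicate 2 and lower in the other C57BL/6 libraries than in any MRL/lpr library. Its counts were 226, 158 and 238 in MRL/lpr replicates 1, 2 and 3, and 104, 951 and 98 in the C57BL/6 replicates. Scaled levels were 31.9, 30.7 and 39.4 CPM in MRL/lpr, against 21.3, 153 and 15.3 CPM in C57BL/6. The groups thus overlapped through a single C57BL/6 library. Group means were 34.0 ± 4.72 CPM in MRL/lpr and 63.1 ± 77.7 CPM in C57BL/6 (SD, n = 3 each), with a log2 fold change of -0.89 ± 0.94 (SE; edgeR adjusted p = 0.638). C57BL/6 replicate 2 alone set the sign: the MRL/lpr mean was 1.60 and 2.23 times the levels of C57BL/6 replicates 1 and 3, and 0.223 times that of replicate 2.

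The passenger arms were scarce. miR-223-5p (mmu-miR-223-5p) had 46, 51 and 44 counts in MRL/lpr and 31, 170 and 29 in C57BL/6, that is 6.50, 9.90 and 7.28 CPM in MRL/lpr against 6.34, 27.3 and 4.52 CPM in C57BL/6. C57BL/6 replicate 2 was again the highest library, and the log2 fold change was -0.70 ± 0.66 (SE; edgeR adjusted p = 0.583). The lowest MRL/lpr library exceeded C57BL/6 replicate 1 by less than the counting error of such low counts. miR-511-5p (mmu-miR-511-5p) had 0 counts in each MRL/lpr library and 1, 7 and 0 counts in the C57BL/6 libraries. It did not pass the filter on low counts, so 3 of the 4 members were tested. Over the group, 0 of 17270999 MRL/lpr counts allows up to 0.174 counts in 1000000 (3 counts). C57BL/6 had 0.434 in 1000000 from 8 counts, 2.50 times that ceiling. This ratio leaves out the counting error of the 8 counts, so it is not a lower bound on the difference. Of the 8 counts, 7 came from C57BL/6 replicate 2. Without that library C57BL/6 held 1 count, under the 3-count floor, and the strains could not be told apart at this depth.

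**Figure D1:**
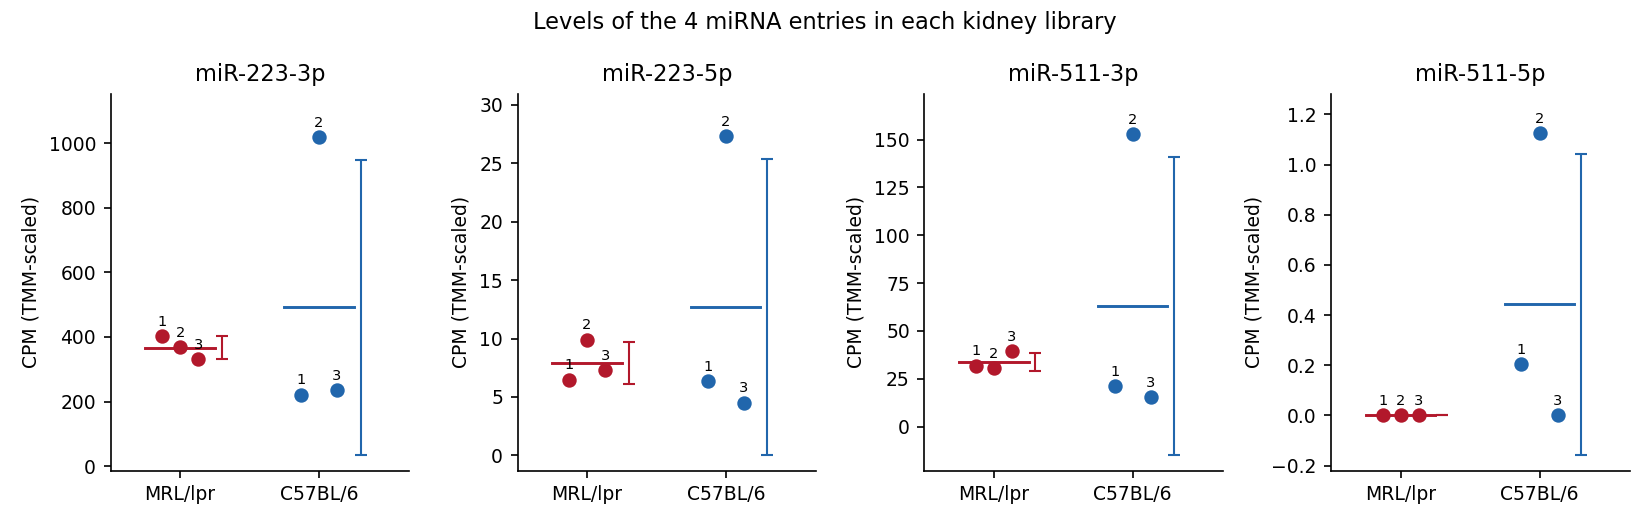
TMM-scaled level (CPM, linear axes) of each entry in the 3 MRL/lpr and 3 C57BL/6 kidney libraries; numbers mark replicates, horizontal lines the means and error bars the SD (n = 3). For miR-223-3p the MRL/lpr libraries sit between 331 and 402 CPM, above C57BL/6 replicates 1 and 3 and below replicate 2 at 1019 CPM, and miR-511-3p shows the same arrangement.

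Over all 6 libraries none of the 3 members tested passed the threshold of adjusted p 0.05, against 6.21% of all 451 miRNAs tested (28, of which 19, or 4.21%, were higher and 9, or 2.00%, lower in MRL/lpr). At an unadjusted p of 0.05 the count of members was also 0 with edgeR, against 20.8% of all 451. DESeq2 called none of the 3, against 8.39% of 608 miRNAs. With no filter, miR-511-5p had an edgeR unadjusted p of 0.0131 and an edgeR adjusted p of 0.176. DESeq2 gave it an unadjusted p of 0.159 and no adjusted p. Nearly all its counts came from C57BL/6 replicate 2, so these values rest on that library. The median log2 fold change of the 3 was -0.70, beside -0.027 over all miRNAs tested, and all 3 were below 0. Without C57BL/6 replicate 2 all 3 changed sign, with a median of 0.71 beside -0.00024 over all 470 tested. miR-511-3p then rose 1.90-fold in MRL/lpr (edgeR adjusted p = 0.0295, log2 fold change 0.93 ± 0.23 SE). miR-223-3p reached a log2 fold change of 0.71 ± 0.20 and narrowly missed the threshold (edgeR adjusted p = 0.0510), and miR-223-5p reached 0.56 ± 0.34 (edgeR adjusted p = 0.348). So 1 of the 3 was called, against 11.5% of the miRNAs tested in that comparison (8.94% higher and 2.55% lower in MRL/lpr). The MRL/lpr and remaining C57BL/6 libraries did not overlap for any of the 3 members, and did not overlap for 44.7% of the 470 miRNAs tested.

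The library left out is the one with the highest level of all 3 members, so a higher value in MRL/lpr without it follows in part from that choice and adds no independent evidence that the strains differ. The calls also moved with the tool and the scaling. Without C57BL/6 replicate 2, miR-223-3p passed with DESeq2 (adjusted p = 0.00475) and with library size alone (edgeR adjusted p = 0.0190). It did not pass with limma-voom (adjusted p = 0.0503), RLE scaling (edgeR adjusted p = 0.0565) or upper-quartile scaling (edgeR adjusted p = 0.0610). miR-511-3p passed with DESeq2 (adjusted p = 0.0252) and with these 3 scalings (edgeR adjusted p = 0.0133 to 0.0334). It did not pass with limma-voom (adjusted p = 0.0572).

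**Figure D2:**
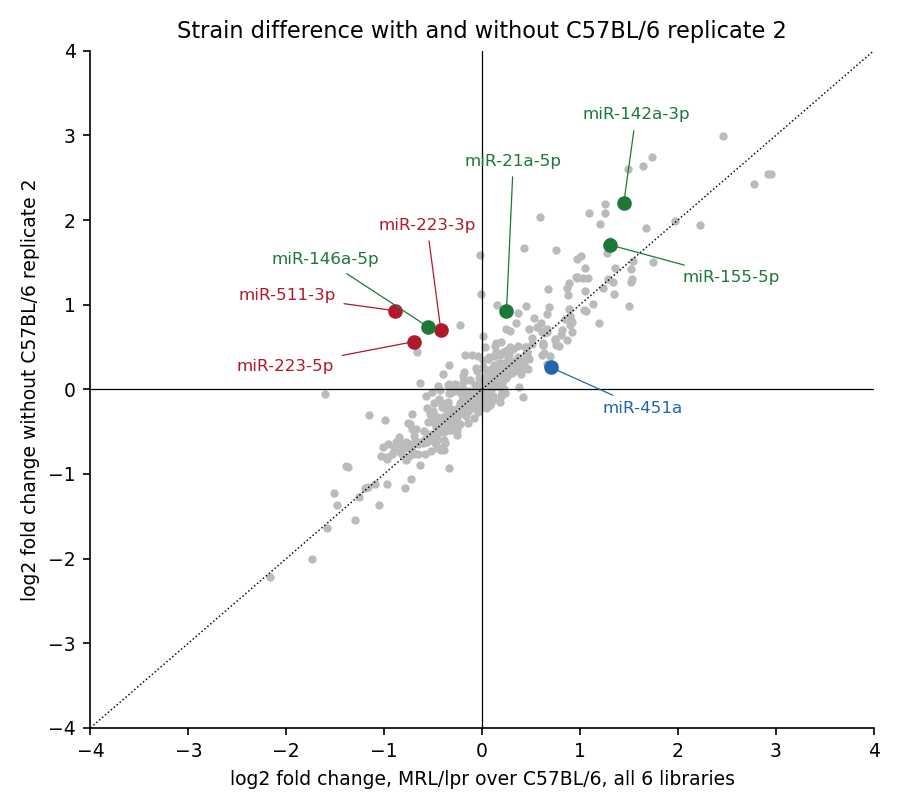
Each point is 1 of 451 miRNAs tested in both fits: its log2 fold change of MRL/lpr over C57BL/6 with all 6 libraries (x axis) and without C57BL/6 replicate 2 (y axis); red marks members, green other leukocyte or macrophage miRNAs, blue an erythroid one, and the dotted line equality. The 3 members lie to the upper left, near miR-146a-5p, with values below 0 on x and above 0 on y, and 5 miRNAs lie outside the plotted range.

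C57BL/6 replicate 2 exceeded the mean of C57BL/6 replicates 1 and 3 by 4.47 times for miR-223-3p, 5.03 times for miR-223-5p and 8.36 times for miR-511-3p. Among the 451 miRNAs tested these ratios ranked 9, 8 and 2 from the top, where the median ratio was 0.966 and the 95th percentile 2.92. All 3 members were highest of the 6 libraries there, as were 23.9% of all miRNAs tested. On the log2 scale the SD of miR-223-3p was 0.14 in MRL/lpr and 1.25 in C57BL/6, and that of miR-511-3p was 0.19 in MRL/lpr and 1.80 in C57BL/6 (n = 3 each).

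Other leukocyte and activated macrophage miRNAs moved with the members in this library. Tested erythroid and endothelial miRNAs and most kidney epithelium miRNAs did not. All 7 tested members of a leukocyte list of 8 were higher in C57BL/6 replicate 2 than in both other C57BL/6 libraries, with a median ratio of 2.55. The list summed to 9025 to 10761 CPM in MRL/lpr, and to 27908 CPM in C57BL/6 replicate 2 against 6009 and 5822 CPM in replicates 1 and 3. Most of each sum was miR-146a-5p: the other 7 of the list summed to 1711 to 2381 CPM in MRL/lpr, and to 2333 CPM in C57BL/6 replicate 2 against 997 and 1057 CPM in replicates 1 and 3. All 7 tested members of an activated macrophage list of 12 were likewise higher there (median ratio 2.69). Of the erythroid list, 0 of 4 tested were higher than in both others. The erythrocyte miRNA miR-451a had 593 CPM in C57BL/6 replicate 2, against 2829 and 3488 CPM in replicates 1 and 3 and 3459 to 4284 CPM in MRL/lpr. miR-144-3p of the same list had 0.482 CPM in C57BL/6 replicate 2, from 3 counts. It had 6.96 and 5.76 CPM in replicates 1 and 3, and 8.93 to 18.7 CPM in MRL/lpr. Of 12 kidney epithelium miRNAs, 1 was higher there than in both others, with a median ratio of 0.765. Neither of the 2 endothelial miRNAs, the arms of miR-126a, was highest among the C57BL/6 libraries in that one (median ratio 0.957). No matching share of all 451 miRNAs tested was computed, so how unusual these list counts are was not tested. Over all 451, the ratio of C57BL/6 replicate 2 to the mean of replicates 1 and 3 had a median of 0.966. Its quartiles were 0.765 and 1.42. What part these leukocyte, erythroid and epithelial levels have in the values of the members was not tested.

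**Figure D3:**
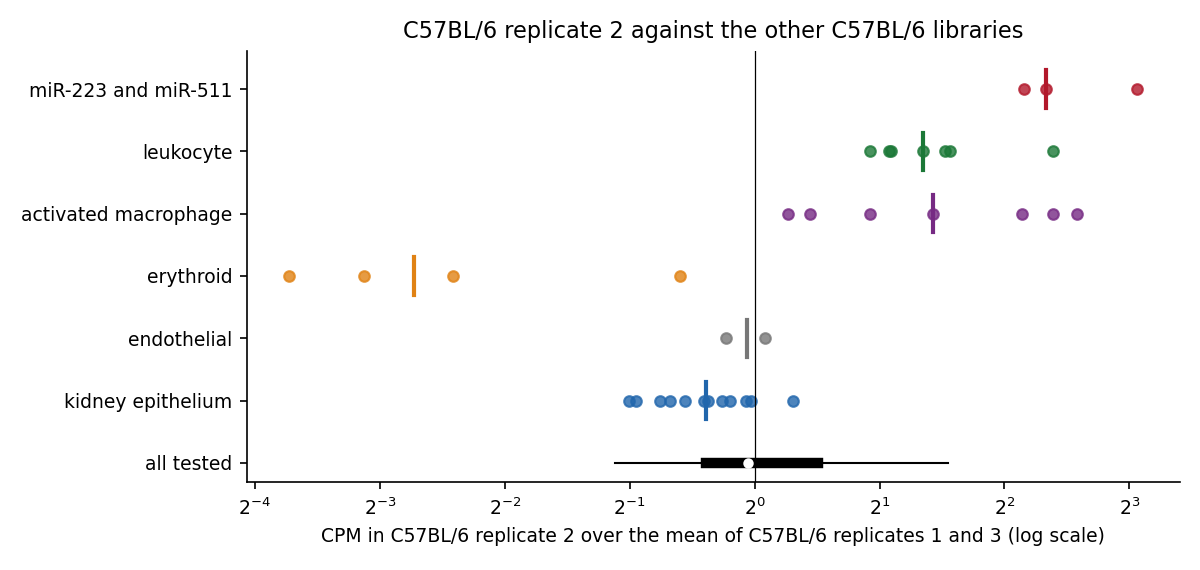
Ratio of the CPM in C57BL/6 replicate 2 to the mean of C57BL/6 replicates 1 and 3 (log axis) for the tested members and for tested miRNAs of each list; points are miRNAs, short vertical lines list medians, and the bottom bar gives the 5th to 95th percentile of all 451 tested, the thick part the quartiles and the white point the median. The members lie between 4.47 and 8.36, above the 95th percentile of 2.92, and all erythroid miRNAs lie below 1.

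The nearest profiles to miR-223-3p were sought among the 277 other tested, named miRNAs with a mean of at least 10 CPM, by the root mean square difference of log2 CPM over the 6 libraries after centring each miRNA on its mean. The 5 nearest were miR-146a-5p (0.14), miR-212-3p (0.18), miR-344-3p (0.22), the sister arm miR-223-5p (0.30) and miR-214-3p (0.31). miR-146a-5p and miR-212-3p are also members of the activated macrophage list, so their nearness and the levels of that list are not separate observations. miR-146a-5p is induced by NF-κB in activated leukocytes. It had 8393, 7314 and 8380 CPM in MRL/lpr and 5011, 25574 and 4765 CPM in C57BL/6. For miR-511-3p the nearest were miR-146a-5p (0.28), miR-223-5p (0.35), miR-223-3p (0.40), miR-344-3p (0.46) and miR-212-3p (0.48). These profiles are dominated by C57BL/6 replicate 2, in which each of the 5 miRNAs nearest to miR-223-3p was 2.41 to 5.23 times the mean of the other C57BL/6 libraries. None of them passed the test over all 6 libraries, and miR-146a-5p did so without C57BL/6 replicate 2 (log2 fold change 0.74, edgeR adjusted p = 0.0105). miR-146a-5p was highest in that library, so its call follows in part from leaving the library out.

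Other leukocyte miRNAs were tested in the same fit. Of 7 leukocyte miRNAs tested, 1 was higher and none lower in MRL/lpr, beside 4.21% higher among all miRNAs tested, with 5 log2 fold changes above 0 and a median of 0.24. The call was miR-155-5p, a miRNA that activated lymphocytes and macrophages induce, which had 173 ± 27.5 CPM in MRL/lpr and 70.1 ± 28.1 CPM in C57BL/6 (SD, n = 3 each; log2 fold change 1.30 with SE 0.30 and edgeR adjusted p = 0.0331). It missed the threshold when C57BL/6 replicate 1 or 3, or MRL/lpr replicate 1 or 3, was left out (edgeR adjusted p = 0.0580 to 0.156), and with non-robust dispersion (0.0528). miR-142a-3p, which is made in nearly all blood cell lineages, had 145, 111 and 151 CPM in MRL/lpr and 34.4, 88.8 and 25.7 CPM in C57BL/6. Its groups did not overlap even with C57BL/6 replicate 2, as for 28.8% of all miRNAs tested (log2 fold change 1.45 with SE 0.45 and edgeR adjusted p = 0.0943). Both arms of miR-142a were called with DESeq2 (adjusted p = 0.00510 for miR-142a-3p and 0.0416 for miR-142a-5p) and by edgeR with no filter (adjusted p = 7.92e-05 and 0.00636). This brought the calls in the leukocyte list to 3 of 8 tested with each, beside 8.39% of all miRNAs with DESeq2 and 4.59% with no filter. Without C57BL/6 replicate 2, 4 of 7 leukocyte miRNAs were higher in MRL/lpr, beside 8.94% of all miRNAs tested, namely miR-142a-3p, miR-142a-5p, miR-155-5p and miR-146a-5p, and the median was 0.74. Among 7 activated macrophage miRNAs tested, miR-155-5p was again the 1 call (4.21% of all miRNAs tested were higher), and without C57BL/6 replicate 2 there were 4 (8.94%): miR-155-5p, miR-146a-5p and both arms of miR-21a. miR-21a-5p was abundant in every library (9041 to 26463 CPM), and which kidney cells made it was not tested. miR-155-5p and miR-146a-5p stand in both lists. All 7 tested members of each list were higher in C57BL/6 replicate 2 than in both other C57BL/6 libraries. The calls gained without it therefore follow in part from leaving it out and add no independent evidence. Of 12 kidney epithelium miRNAs tested, 2 were higher in MRL/lpr with and without that library, beside 4.21% and 8.94% of all miRNAs tested. Over all 6 libraries they were miR-204-5p (log2 fold change 1.52, edgeR adjusted p = 0.00141) and miR-802-5p (1.75, edgeR adjusted p = 0.00793). miR-802-5p missed the threshold without MRL/lpr replicate 3 (edgeR adjusted p = 0.0643).

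Ratios within a library do not depend on how libraries are scaled. The ratio of miR-223-3p to miR-142a-3p counts was 2.78, 3.33 and 2.19 in MRL/lpr and 6.44, 11.5 and 9.15 in C57BL/6. Every MRL/lpr library lay below every C57BL/6 library, a 3.22-fold lower ratio (geometric means; exact two-sided permutation p = 0.1, the smallest that 3 against 3 can give; adjusted p = 0.25 over 5 such tests). The ratio of miR-511-3p to miR-142a-3p was 0.221, 0.277 and 0.261 in MRL/lpr and 0.619, 1.72 and 0.594 in C57BL/6. It too was lower in every MRL/lpr library, by 3.41-fold (exact permutation p = 0.1, adjusted p = 0.25). Unlike the levels of the members, both ratios kept their direction without C57BL/6 replicate 2, with log2 differences of -1.49 and -1.27. Such a pattern was common: 59.1% of the 450 other miRNAs tested had a ratio to miR-142a-3p that was lower in every MRL/lpr than in every C57BL/6 library, and 91.0% of 469 without C57BL/6 replicate 2. The lower ratios go with the higher miR-142a-3p of MRL/lpr and are not particular to the members.

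With other leukocyte miRNAs in the denominator, chosen after the values were seen, the separation depended on the miRNA. Against miR-142a-5p and miR-155-5p both members were again lower in every MRL/lpr library (log2 differences from -1.49 to -1.40), where 30.9% of all other miRNAs tested were lower against miR-142a-5p and 66.0% against miR-155-5p in the same way. Without C57BL/6 replicate 2 these shares were 84.4% and 84.9%. Against the lymphocyte miRNAs miR-150-5p and miR-342-3p the groups overlapped (log2 differences from -0.44 to -0.18, exact permutation p from 0.6 to 0.8). Against miR-146a-5p the ratio of miR-223-3p was nearly constant, at 0.0479, 0.0504 and 0.0395 in MRL/lpr and 0.0442, 0.0399 and 0.0493 in C57BL/6. The highest of these 6 ratios was 1.28 times the lowest, while the level of miR-223-3p itself ranged from 221 to 1019 CPM. The ratio of miR-511-3p to miR-146a-5p ranged more, with the highest 1.86 times the lowest. miR-146a-5p had the nearest profile to both members above. A narrow range of these ratios restates that nearness and adds no separate result.

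**Figure D4:**
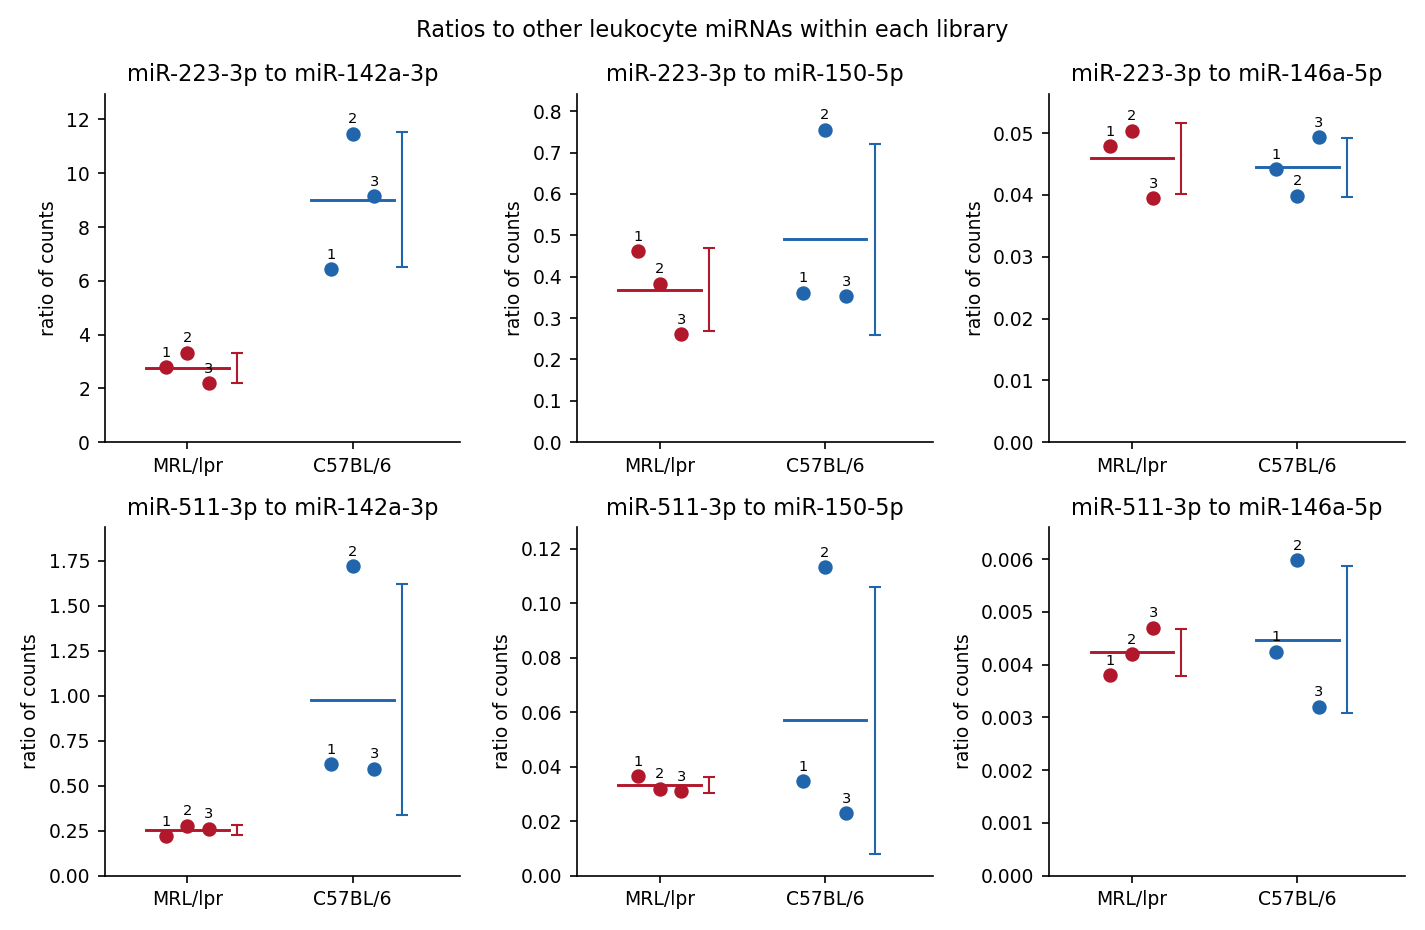
Ratio of counts within each library of miR-223-3p (top) and miR-511-3p (bottom) to miR-142a-3p, miR-150-5p and miR-146a-5p, in 3 MRL/lpr and 3 C57BL/6 libraries; numbers mark replicates, lines the means and error bars the SD (n = 3). Ratios to miR-142a-3p are lower in every MRL/lpr library (2.19 to 3.33 against 6.44 to 11.5 for miR-223-3p), and those to the other 2 miRNAs overlap.

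The members were also set against each other. The ratio of miR-511-3p to miR-223-3p counts was 0.0794, 0.0832 and 0.119 in MRL/lpr and 0.0961, 0.150 and 0.0649 in C57BL/6, so the groups overlapped (log2 difference -0.084, exact two-sided permutation p = 0.9, adjusted p = 0.9). Ligation during library preparation favours some ends over others, so the ratio compares libraries and is not a ratio of molecules.

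Arm usage was strongly one-sided in both hairpins. The 3p arm took 98.4%, 97.4% and 97.8% of the miR-223 counts in MRL/lpr and 97.2%, 97.4% and 98.1% in C57BL/6. The 95% Clopper-Pearson intervals, which cover counting error only, ran from 96.6% to 98.8% over the MRL/lpr libraries and from 96.1% to 98.7% over the C57BL/6 libraries. The difference of the means was 0.307 percentage points (exact two-sided permutation p = 0.6, adjusted p = 0.75), within the spread between libraries. C57BL/6 replicate 2, with 170 counts of the 5p arm, had a share between those of the other C57BL/6 libraries.
For miR-511 the 3p arm took 100% of the counts in each MRL/lpr library and 99.0%, 99.3% and 100% in C57BL/6 (exact permutation p = 0.4, adjusted p = 0.667). The lower bounds of the intervals were 97.7% to 98.5% in MRL/lpr and 94.8% to 98.5% in C57BL/6, so no difference in arm usage was detectable at this depth.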

How the data were processed

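Small RNA from kidney was ligated to adapters, amplified, size-selected on gels and sequenced as DNA nanoballs, per the labels' protocols. The authors deposited 1 table of raw, whole-number counts for mature miRNAs. Bowtie2, DESeq2 and the build GRCm38.p6 are listed, without role or version, per the submitters' processing notes. The miRNA annotation, handling of multiply matching reads, strand and use of molecular identifiers: not given in the sources used here. PCR copies may therefore count as separate molecules.

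Columns were matched to samples by strain, age and replicate number. Counts were kept by filterByExpr (minimum count 10, minimum total 15), scaled by TMM and tested for strain with the edgeR 4.0.16 quasi-likelihood test with robust dispersion (R 4.3.3), with Benjamini-Hochberg adjustment over all miRNAs tested and a threshold of 0.05. Each SE is the absolute log2 fold change over the square root of F. Ratios and arm shares were compared by exact permutation (scipy 1.17.1). Neither group held a copied library: its pairs gave a chi-square of 123 to 726 per degree of freedom. The fit was checked on simulated counts. Alternatives were other scalings and filters, DESeq2 1.42.0, limma-voom (limma 3.58.1), non-robust dispersion, the replicate number as a block and each library left out; tools and scalings combined with leaving out C57BL/6 replicate 2, and other denominators, were added after the data were seen. Named miRNAs were the members, list members past the threshold with or without C57BL/6 replicate 2 (else the 2 most abundant), and the 5 nearest profiles; a few others are named for a ratio or a marker level. Members and lists were chosen with earlier results of these data known. Sequences are from RefSeq (GRCm38.p6) and exons from GENCODE M21.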

Additional observations from a re-analysis of the deposited data

How the results depend on the processing

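Over all 6 libraries miR-223-3p, miR-223-5p and miR-511-3p kept their sign and stayed short of the threshold with other scalings, filters, tools and the block; miR-223-5p has no value at 10 CPM in 3 libraries, which it did not pass. Leaving out 1 library at a time, log2 fold changes ran from -0.82 to 0.71 for miR-223-3p, -1.14 to 0.56 for miR-223-5p and -1.39 to 0.93 for miR-511-3p, above 0 only without C57BL/6 replicate 2. Without that library, and with DESeq2, limma-voom, RLE, upper-quartile or library-size scaling, they were 0.69, 0.70, 0.69, 0.68 and 0.88 for miR-223-3p, 0.54, 0.55, 0.54, 0.54 and 0.72 for miR-223-5p, and 0.91, 0.93, 0.91, 0.90 and 1.10 for miR-511-3p. Leaving out a library, miR-146a-5p ran from -0.97 to 0.74, miR-212-3p from -1.06 to 0.44, miR-344-3p from -0.61 to 0.76 and miR-214-3p from -0.43 to 0.40, each above 0 without C57BL/6 replicate 2, and miR-21a-5p from -0.057 to 0.92. Near 0, miR-344-3p turned with limma-voom (0.065) and the block (0.084), and miR-126a-5p with library size alone (0.068). The causes were not tested.

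The number of miRNAs past the threshold, 28, was 64 with no filter, 51 with DESeq2, 13 with the replicate block and 5 to 54 with a library left out, the highest without C57BL/6 replicate 2 and the lowest without MRL/lpr replicate 3. Library size alone moved the median of all miRNAs by 0.15. Deviations of same-numbered libraries from their group means correlated at -0.37, 0.034 and -0.37, and no library correlated best with its own number, so the numbers are not taken as pairs; with the block, miR-223-3p was at -0.011 and miR-511-3p at -0.055, and miR-155-5p missed the threshold (1.37, edgeR adjusted p = 0.0842). The ratio of miR-223-3p to miR-142a-3p ran from -1.91 to -1.49 (log2 difference) and that of miR-511-3p from -2.04 to -1.27 with a library left out; against miR-146a-5p the first was 0.045. The ratio of miR-511-3p to miR-223-3p ran from -0.38 to 0.22 and has no stable direction. Arm shares kept their sign. With few counts, the 5p arms carry a wide counting error.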
